A study of Caenorhabditis elegans with 6 samples.

Results

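Short-chain dehydrogenases (dhs), aldehyde dehydrogenases (alh) and flavin-containing monooxygenases (fmo) were examined in adult Caenorhabditis elegans kept with or without caffeine. The genes were taken by symbol: every gene in the deposited tables named dhs, alh or fmo was a member, except dhs-3, dhs-28 and alh-8. This gave 45 of 46904 gene IDs, namely 28 dhs, 12 alh and 5 fmo genes. The rule itself used no measured value, but it was set with earlier results of these data known. All animals were hermaphrodites of strain N2, the standard laboratory wild type, moved at the last larval stage to plates of bacteria-seeded agar kept at 25 °C. Over the next 72 h the agar held 0 mM caffeine in the 3 control samples and 10 mM caffeine, a methylxanthine, in the 3 caffeine samples. Whole animals on day 3 of adulthood were collected as pools of about 300 worms per sample, which the labels call biological replicates, and polyadenylated RNA was sequenced. The groups differed in caffeine alone, as far as the labels say.

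The 3 families oxidise or reduce small molecules and are counted among the enzymes of the first phase of drug metabolism, beside the cytochromes P450. Short-chain dehydrogenases move hydride between NAD(H) or NADP(H) and alcohols or ketones, including steroids, retinoids and fatty acid derivatives. Aldehyde dehydrogenases oxidise aldehydes to acids, and several of them complete the breakdown of single amino acids in mitochondria. Flavin-containing monooxygenases add oxygen to nitrogen or sulfur in a substrate. In worms, fmo-2 is known as a target of stress and food-restriction pathways that lengthens life when overexpressed.

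Each library held between 40417780 and 40746556 expected counts, the authors' estimates of reads per gene. Levels are given as CPM, that is, counts put on a shared library size with TMM factors. Markers listed for 6 cell types were present. Summed levels of the intestine, epidermis, muscle and neuron markers did not overlap between the groups, while those of germline and sperm markers did. The 6 intestine markers summed to 1285 to 1526 CPM in control and 1586 to 1743 with caffeine, but single markers went both ways: vha-6 and asp-1 were called higher at log2 ratios of caffeine to control of 0.91 and 0.36, and act-5 and elt-2 were called lower at -1.12 and -0.69. Epidermis markers summed to 243 to 272 against 283 to 311, body wall muscle markers to 354 to 399 against 449 to 586, and neuron markers to 208 to 214 against 225 to 229. Singly, 1 of 5 epidermis, 2 of 4 muscle and 1 of 5 neuron markers were called higher and 0 lower. Germline and oocyte markers ran from 8005 to 8469.7 CPM in control and from 6431 to 8587 with caffeine, with caffeine library 1 at the top. Sperm markers were at 3.20 to 17.6 CPM in control and 3.14 to 7.11 with caffeine. The msp-142 and msp-78 markers were at 0 in at least 1 library, and no other listed marker was. In whole animals, more cells of a type and more RNA per cell cannot be told apart. The part of these shifts in the values below was not tested.

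Caffeine was accompanied by higher RNA of part of each family and by no called fall in any. Of 45 members, 43 had enough counts to be tested by edgeR's quasi-likelihood test over 14200 genes, and 17 were called at a Benjamini-Hochberg adjusted p under 0.05. All 17 were higher. Among all tested genes, 24.3% were called, 13.8% higher and 10.5% lower. By prefix, 9 of 27 tested dhs, 6 of 11 tested alh and 2 of 5 fmo genes rose. At an unadjusted p under 0.05, 3 members were lower, namely alh-6, dhs-18 and fmo-1, and DESeq2 and limma-voom each called 0 members lower. The median log2 ratio was 0.11 for dhs, 0.29 for alh and 0.07 for fmo genes, against 0.00 over all tested genes. Of the 17, 8 were at least 2-fold higher, while 5.94% of all tested genes were called at that size. The groups did not overlap in any of the 17, nor in 4 other members, which makes 21 of 43 against 44.3% of all tested genes.

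**Figure D1:**
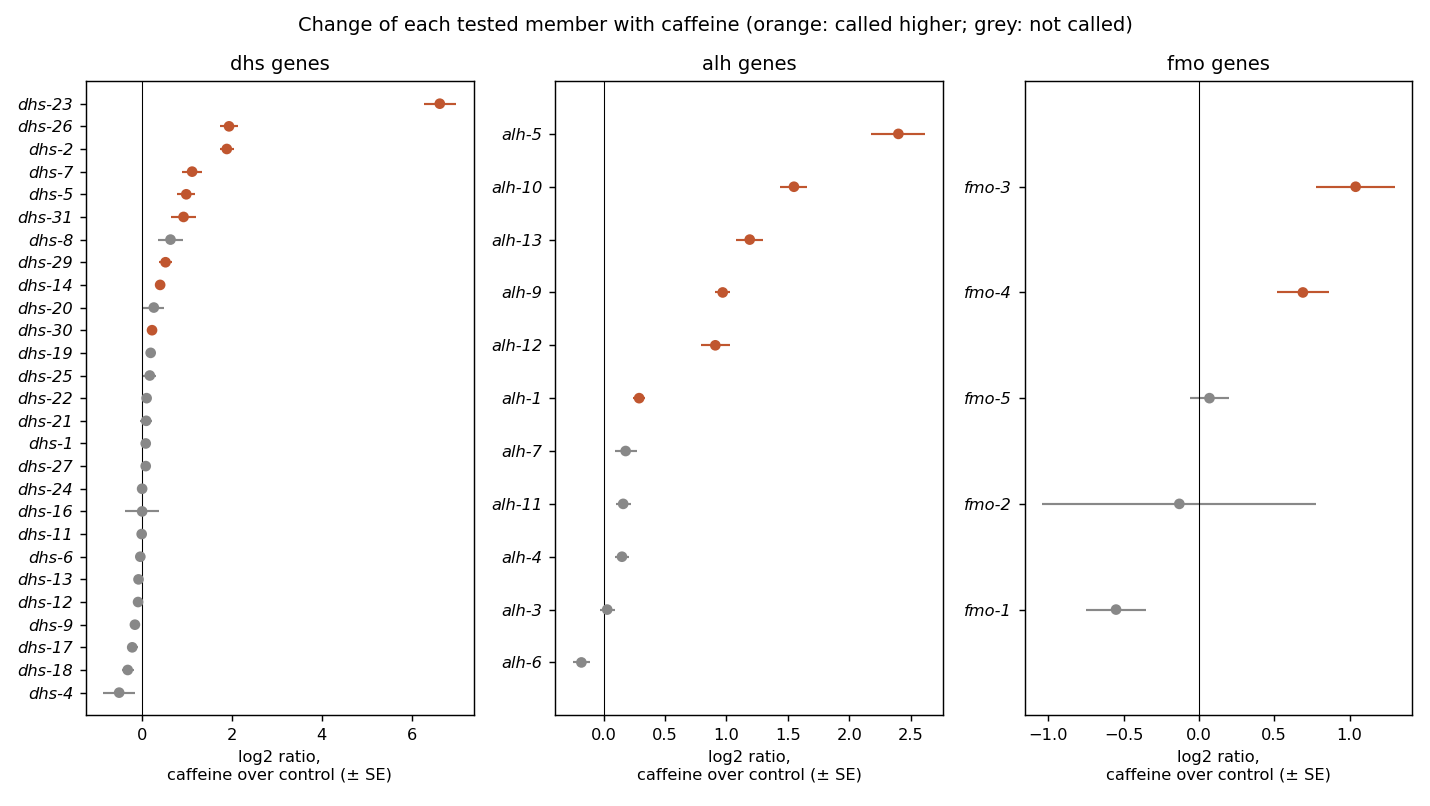
Log2 ratio of each tested dhs, alh and fmo gene with caffeine over control, with its standard error (horizontal axis, log2 scale, a separate range per panel; vertical axis, genes). Orange points are the 17 members called higher and grey points the 26 that were not called, and dhs-23 stands far from the rest at 6.62.

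Among the short-chain dehydrogenases, dhs-23 (WBGene00000986, chromosome V, 15381219 to 15382271, plus strand) changed most. It had 9, 14 and 2 counts in the control libraries and 627, 1103 and 855 with caffeine. These are 0.223, 0.353 and 0.05 CPM against 16.2, 25.4 and 20.8 CPM. The gene went from the edge of detection to a middling level in all 3 caffeine libraries. The log2 ratio was 6.62 (SE 0.36), a 98.5-fold difference, with an adjusted p of 1.93e-05 by edgeR. With any 1 library left out the log2 ratio lay between 6.16 and 7.21, and without control library 2 and caffeine library 1 it was 7.37. The gene passed the count filter through its caffeine libraries. With so few control counts, the size of the ratio is uncertain. Per kilobase of exon, its level in control was 0.218 CPM, below every other tested dhs gene, and with caffeine it was 21.7 CPM, close to dhs-26 at 21.0.

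The next in size were dhs-26 and dhs-2. On chromosome X, dhs-26 (3360722 to 3362493, minus strand) was at 7.18, 7.48 and 4.35 CPM in control and 22.5, 27.1 and 23.6 CPM with caffeine. Control library 3 was the lowest and the groups lay far apart. The log2 ratio was 1.94 (SE 0.19), with an adjusted p of 0.000337 in the edgeR test. On chromosome I, dhs-2 (5354181 to 5357029, plus strand) was at 5.05, 4.51 and 3.50 CPM in control and 16.2, 14.5 and 17.7 CPM with caffeine. Its log2 ratio was 1.89 (SE 0.15), with an adjusted p of 0.000107 in the edgeR test. Exons of both genes overlap a gene on the other strand in the annotation, and whether the authors counted by strand is not given in the sources used here.

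Smaller rises were found in dhs-7 and dhs-5, both on chromosome II. Exons of these genes also overlap a gene on the other strand in the annotation. Values of dhs-7 (7206990 to 7208460, minus strand) were 2.13, 2.67 and 1.45 CPM in control and 3.81, 4.94 and 4.81 CPM with caffeine. The groups did not overlap, and the log2 ratio was 1.12 (SE 0.23, adjusted p 0.00983, edgeR). For dhs-5 the values were 12.1, 10.3 and 6.82 CPM against 16.3, 20.8 and 20.9 CPM, a log2 ratio of 0.99 (SE 0.20, adjusted p 0.00967, edgeR). In both genes control library 3 was lowest and caffeine library 1 was nearest to the controls. These genes, dhs-23, dhs-26 and dhs-2 remained called under all 15 alternative settings.

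The other 4 called dhs genes rested on thinner margins. Their log2 ratios were 0.93 for dhs-31, 0.53 for dhs-29, 0.41 for dhs-14 and 0.23 for dhs-30, with adjusted p-values of 0.0403, 0.0377, 0.0343 and 0.0477 in the edgeR test. In dhs-31, a low gene, controls were at 1.14, 1.23 and 1.1 CPM and caffeine libraries at 1.42, 2.72 and 2.45 CPM, so caffeine library 1 stood near the controls. In dhs-30 the step was small but the libraries were tight, with 23, 24.9 and 24 CPM in control and 28.3, 26.9 and 29.0 CPM with caffeine. Only 5 dhs genes were called higher without control library 1, without control library 2, without control library 3, without caffeine library 2 or without caffeine library 3, and 10 were called higher without caffeine library 1.

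The 18 tested dhs genes that were not called had log2 ratios between -0.50 for dhs-4 and 0.64 for dhs-8. Both of these genes were low, at 2.58 CPM or less in every library. Single libraries decided some calls: dhs-19 and dhs-22 were called higher without caffeine library 1 (adjusted p 0.0314 and 0.0461, edgeR), dhs-13 was called lower without caffeine library 1 (0.0385), dhs-17 lower without caffeine library 3 (0.0371) and dhs-18 lower without control library 3 (0.0229). The most abundant member, dhs-22, was at 202, 202 and 212 CPM in control and 211, 230.2 and 224 CPM with caffeine. It held 24.9% of the summed dhs level in control and 24.4% with caffeine, and its control and caffeine libraries overlapped. Next came dhs-1 with a mean of 95.8 ± 3.46 CPM in control and 102 ± 5.94 with caffeine, and dhs-13 with 93.2 ± 4.32 and 89.1 ± 12.4 (mean ± SD, n = 3 per group). Per kilobase of exon the tested dhs genes ran from 0.603 CPM for dhs-16 to 187 CPM for dhs-22, as means over all 6 libraries. The sum over tested dhs genes was 824, 827 and 818 CPM in control and 889.8, 918 and 922 CPM with caffeine, a ratio of 1.11.

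Among the dhs genes that were not called, dhs-16 and dhs-21 have a known role outside drug metabolism. Such a role did not go with absence of a call, since alh-9 and alh-13, described below, have one and were called higher. The 3-hydroxysteroid dehydrogenase dhs-16, an enzyme of dafachronic acid synthesis, the hormone pathway of the nuclear receptor daf-12, had a log2 ratio of 0.01 (SE 0.38) on 197 counts in total. The dicarbonyl and L-xylulose reductase dhs-21 had 0.10 (SE 0.14). Over 11 listed genes of dafachronic acid and sterol handling, 9 were tested. Against 24.3% of all tested genes, 1 of the 9 was called in the edgeR test. This was ncr-1, a homologue of the human cholesterol transporter NPC1, which fell from 41.4, 38.4 and 33.9 CPM to 18.1, 18.2 and 15.1 CPM, a log2 ratio of -1.14 (SE 0.11, adjusted p 0.000246, edgeR). None of the 9 was called higher by edgeR, DESeq2 or limma-voom, and 0 were higher at an unadjusted p under 0.05. The cytochrome P450 daf-9 was at -0.08 and daf-36 at -0.32, both not called.

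A list of 15 other genes was chosen as dehydrogenases of alcohols, ketones and fatty acyl chains. It held 13 genes with a match and 9 that were tested. Against 13.8% of all tested genes called higher, 5 of the 9 rose. Log2 ratios of these 5 were 2.12 for drd-5, 1.63 for stdh-2, 0.39 for decr-1.1, 0.30 for stdh-1 and 0.23 for adh-5, a class III alcohol dehydrogenase. The class of drd-5 is not annotated in the tables used here, so its place on the list is uncertain. In drd-5 the values were 8.12, 5.56 and 5.07 CPM in control and 24.8, 28 and 28.7 CPM with caffeine. The groups in drd-5 lay wide apart, while stdh-2 rested on 181 counts in all. Of the 5, drd-5 and decr-1.1 were called under all 15 alternatives, and stdh-1, stdh-2 and adh-5 under 9, 8 and 5. None of the 9 was called lower in edgeR, DESeq2 or limma-voom, with 0 lower at an unadjusted p under 0.05.

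**Figure D2:**
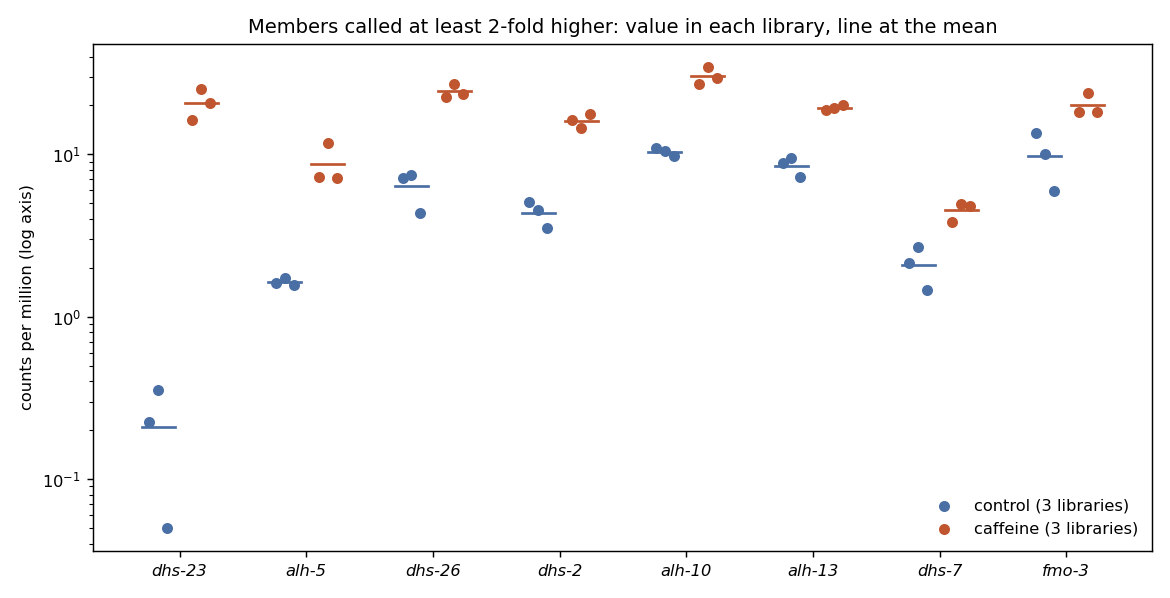
CPM in each library (vertical axis, log scale) of the 8 members called at least 2-fold higher, ordered by fold change along the horizontal axis. Blue points are the 3 control and orange points the 3 caffeine libraries, with a line at each mean, and the colours do not overlap in any of the 8 genes.

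Among the aldehyde dehydrogenases, 6 of 11 tested genes rose (54.5%), and these 6 were called under all 15 alternatives. The largest change was in alh-5, a class 3 type aldehyde dehydrogenase on chromosome V (1996105 to 1999581, minus strand). It was at 1.61, 1.74 and 1.57 CPM in control and 7.24, 11.7 and 7.14 CPM with caffeine. Controls were tight and caffeine library 2 was highest. The log2 ratio was 2.40 (SE 0.22), a 5.29-fold difference, with an adjusted p of 0.000223 (edgeR).

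On chromosome X, alh-10 (7140504 to 7143641, minus strand) and alh-13 (12782394 to 12787147, plus strand) also rose by more than 2-fold. Values of alh-10 were 10.9, 10.5 and 9.77 CPM in control and 27, 34.5 and 29.4 CPM with caffeine, a log2 ratio of 1.55 (SE 0.11, adjusted p 6.4e-05, edgeR). An exon of alh-10 overlaps clec-86 on the other strand, a lectin gene that was also called higher at 1.2. The mean of clec-86 with caffeine was 5.13 CPM and that of alh-10 was 30.3 CPM. How reads in the overlap were shared between the genes was not tested. For alh-13, the worm counterpart of pyrroline-5-carboxylate synthase, which makes the precursor of proline and ornithine from glutamate, the values were 8.79, 9.44 and 7.27 CPM against 18.7, 19.4 and 20.0 CPM. The caffeine libraries differed little from each other, and the log2 ratio was 1.19 (SE 0.11, adjusted p 0.000254, edgeR).

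The other called alh genes rose by less. In alh-9, the counterpart of human ALDH7A1, an enzyme of lysine breakdown, values went from 90.7, 80.9 and 86.7 CPM to 165, 167 and 175 CPM. This was a log2 ratio of 0.97 (SE 0.06) and the smallest adjusted p among the alh genes at 3.02e-05 (edgeR). For alh-12 the values were 34.8, 29.2 and 26.4 CPM in control and 50.7, 55.2 and 63.4 CPM with caffeine, a log2 ratio of 0.91 (SE 0.12, adjusted p 0.00131, edgeR). The most abundant member was alh-1, which resembles human mitochondrial ALDH2. It was at 235, 228 and 221 CPM in control and 278, 287 and 271 CPM with caffeine, a log2 ratio of 0.29 (SE 0.05, adjusted p 0.00626, edgeR).

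The other 5 tested alh genes were not called. Their log2 ratios were 0.18 for alh-7, the succinate semialdehyde dehydrogenase of the GABA shunt, 0.16 for alh-11, 0.15 for alh-4, a fatty aldehyde dehydrogenase, 0.03 for alh-3, the formyltetrahydrofolate dehydrogenase, and -0.18 for alh-6. The last, alh-6, is the mitochondrial pyrroline-5-carboxylate dehydrogenase of proline breakdown. It was at 62.1, 65.3 and 59.8 CPM in control and 59.4, 53.4 and 52.7 CPM with caffeine. The groups did not overlap, but the adjusted p was 0.0889 in the edgeR test, and it became 0.0210 without caffeine library 1, the caffeine library nearest to the controls in alh-6. For alh-4 the adjusted p of 0.114 became 0.0411 without caffeine library 2 and 0.0445 with libraries scaled by their totals only. The gene alh-2, with 5 counts over all libraries, was too low to test. Per kilobase of exon the tested alh genes ran from 3.73 CPM for alh-5 to 134 CPM for alh-1. Summed over tested alh genes the level was 743, 719 and 701 CPM in control and 933, 937 and 940.3 CPM with caffeine, a ratio of 1.3, of which alh-1 held 31.6% in control and 29.7% with caffeine.

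**Figure D3:**
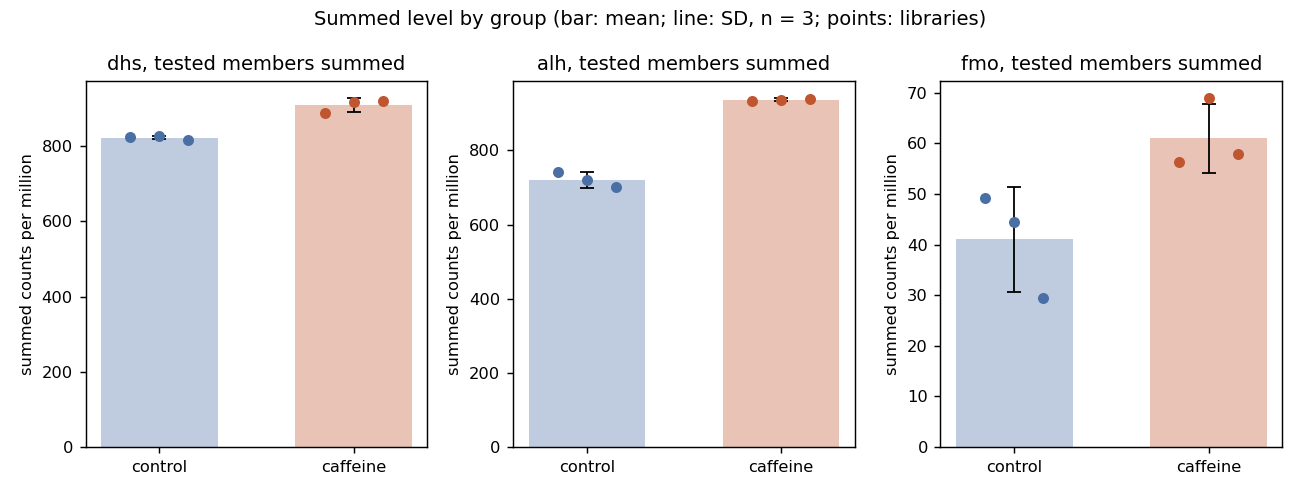
Summed CPM of the tested dhs, alh and fmo genes (vertical axis, from 0, a separate range per panel) in the control and caffeine groups. Bars are means of 3 libraries, black lines the SD and points the libraries; the groups do not overlap in any panel, and the ratio of means was 1.11 for dhs, 1.3 for alh and 1.49 for fmo genes.

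Genes around these enzymes were read from lists. In the list of proline, ornithine and GABA genes, 6 of 8 had a match and were tested, and 4 rose and 1 fell. Among all tested genes, 13.8% were called higher and 10.5% lower. The GABA transaminase gta-1, which works just before alh-7, rose from 78.4, 77.5 and 79.7 CPM to 132, 158 and 146 CPM, a log2 ratio of 0.89 (SE 0.07, adjusted p 0.000107, edgeR). Both groups were tight and lay far apart. The ornithine aminotransferase oatr-1 rose at 0.35, the pyrroline-5-carboxylate reductase pycr-1 at 0.47 and the glutamate decarboxylase unc-25 at 0.46, while pycr-4 fell at -0.57 (SE 0.10). The proline dehydrogenase prdh-1 was not called, at -0.33 with an adjusted p of 0.124 in the edgeR test. The GABA and proline enzymes thus held called rises in alh-13, gta-1, oatr-1, pycr-1 and unc-25, a called fall in pycr-4, and no call in alh-6, alh-7 and prdh-1. Of the listed genes, gta-1, oatr-1 and pycr-4 were called under all 15 alternatives, and unc-25 and pycr-1 under 8 and 7.

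Of 8 folate and methionine cycle genes, which share the one-carbon pool with alh-3, all were tested. Against 13.8% of all tested genes called higher, 3 of the 8 rose. These were dao-3, a methylenetetrahydrofolate dehydrogenase, at 0.68 (SE 0.07), sams-1, an S-adenosylmethionine synthetase, at 0.50 (SE 0.15) and mel-32, the serine hydroxymethyltransferase, at 0.22 (SE 0.06). The call of dao-3 held under all 15 alternatives, and those of sams-1 and mel-32 under 10 each. None was called lower in edgeR, DESeq2 or limma-voom, with 0 lower at an unadjusted p under 0.05.

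Flavin monooxygenases differed among themselves. Of the 5 genes, fmo-3 and fmo-4 rose in the test with all libraries. On chromosome III, fmo-3 (10694681 to 10698864, plus strand) was at 13.5, 10.0 and 5.92 CPM in control and 18.2, 24 and 18.3 CPM with caffeine. Control values spread more than 2-fold, yet the groups did not overlap. The log2 ratio was 1.04 (SE 0.26), with an adjusted p of 0.0243 (edgeR).

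On chromosome V, fmo-4 (13603276 to 13606701, minus strand), known from worm work on osmotic balance and longevity, was the most abundant fmo gene. Values were 21.2, 19.5 and 13.3 CPM in control and 25.5, 32.5 and 28.7 CPM with caffeine. The log2 ratio was 0.69 (SE 0.17), with an adjusted p of 0.0221 (edgeR). In both genes control library 3 was lowest and caffeine library 2 highest. Each lost its call when any of 3 libraries was removed. Without control library 2 the adjusted p was 0.0712 for fmo-3 and 0.0502 for fmo-4, without caffeine library 2 it was 0.0856 and 0.0778, and without caffeine library 3 it was 0.0516 and 0.0608 (edgeR). No fmo gene was then called higher. In these fits the log2 ratio lay between 0.89 and 1.1 for fmo-3 and between 0.59 and 0.74 for fmo-4.

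The remaining fmo genes were not called. In fmo-1, on chromosome IV, the values were 5.10, 5.67 and 3.35 CPM in control and 3.33, 3.05 and 3.30 CPM with caffeine. Control library 3 lay almost on the caffeine libraries, and the log2 ratio of -0.55 (SE 0.20) had an adjusted p of 0.0786 (edgeR). Without control library 3 it was -0.74 with an adjusted p of 0.0134. For fmo-5 the log2 ratio was 0.07 (SE 0.13), and its libraries overlapped.

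The longevity-linked fmo-2, which lies 18119 bp from fmo-1 on chromosome IV (10682524 to 10684367, plus strand), was low and uneven. Its counts were 65, 72 and 8 in control and 20, 111 and 9 with caffeine. In CPM these were 1.61, 1.81 and 0.200 against 0.516, 2.56 and 0.218. Control library 3 and caffeine library 3 were alike, and the spread within each group was wider than the difference of the means. The log2 ratio was -0.13 with an SE of 0.91, the widest among the members, so a change of several fold in either direction was not detectable here. Leaving out 1 library moved the estimate between -1.72 and 0.36. Summed over the 5 fmo genes the level was 49.2, 44.5 and 29.4 CPM in control and 56.4, 68.9 and 57.9 CPM with caffeine, with control library 3 well below the others. Per kilobase of exon the fmo genes ran from 0.695 CPM for fmo-2 to 11.6 CPM for fmo-4, as means over all 6 libraries.

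**Figure D4:**
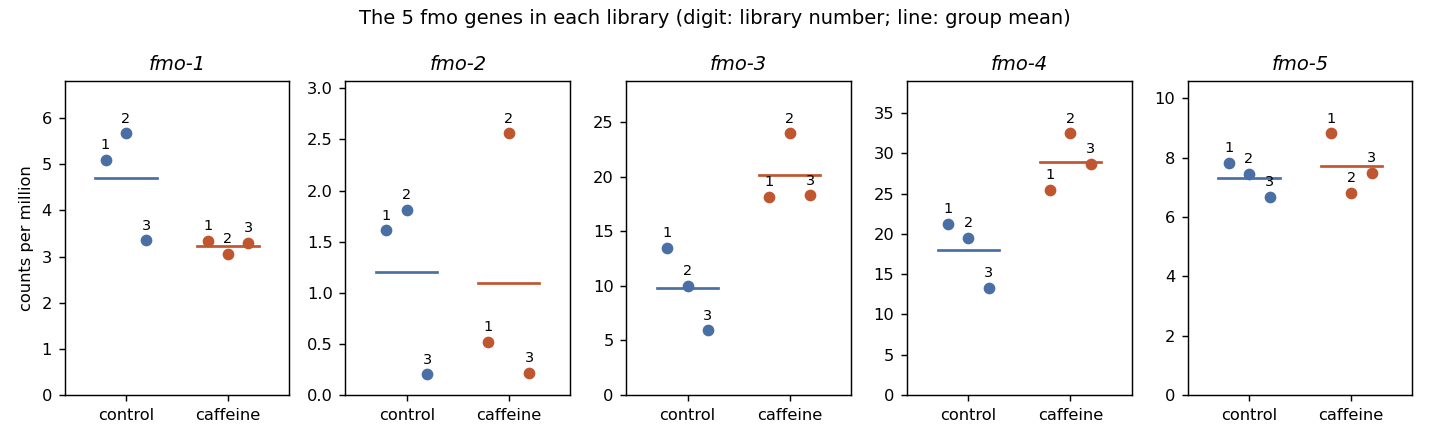
CPM (vertical axes, from 0, a separate range per gene) of the 5 fmo genes in the 3 control libraries (blue) and the 3 caffeine libraries (orange). Digits give the library number and lines the group means; fmo-3 and fmo-4 are higher in all caffeine libraries, and fmo-2 runs from 0.200 to 1.81 CPM within control and from 0.218 to 2.56 CPM within caffeine.

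Genes linked in worm work to fmo-2 regulation or to the hypoxia pathway were read from a list of 11, all tested. None was called higher in edgeR, DESeq2 or limma-voom, with 0 higher at an unadjusted p under 0.05. Against 10.5% of all tested genes called lower, 5 of the 11 fell. These were rips-1 at a log2 ratio of -0.99 (SE 0.12), the cysteine synthase family gene cysl-2 at -0.48 (SE 0.11), the Mediator subunit mdt-15 at -0.36, the stress regulator skn-1 at -0.31 and its repressor wdr-23 at -0.24. In rips-1 the values were 8.54, 10.3 and 8.74 CPM in control and 5.08, 4.20 and 4.66 CPM with caffeine, with no overlap. Its call held under all 15 alternatives, those of cysl-2 and mdt-15 under 13, that of skn-1 under 11 and that of wdr-23 under 10. The transcription factors hif-1, hlh-30 and nhr-49 were not called, at -0.11, -0.12 and -0.06. The hypoxia gene rhy-1 varied widely in control, at 17.7, 26.9 and 41.3 CPM, against 18.7, 15.1 and 21.3 CPM with caffeine, and was not called.

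The libraries did not contribute alike. In 13 of the 17 called members (76.5%), caffeine library 1 was the caffeine library nearest to the control mean on the log scale. Among all 3450 called genes, higher and lower together, this held for 58.6%. The share among genes called higher alone was not counted. On the control side, library 3 held the lowest control value in 14 of the 17 called members, against 40.1% of all 1962 genes called higher, and in 26 of the 43 tested members, against 34.4% of all tested genes. Without control library 2, without caffeine library 2 or without caffeine library 3, 11 of the 17 calls remained. Without control library 1 or control library 3, 13 remained, and without caffeine library 1, 16. With both control library 2 and caffeine library 1 left out, the libraries highest in sperm markers in their groups, 14 remained.

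**Figure D5:**
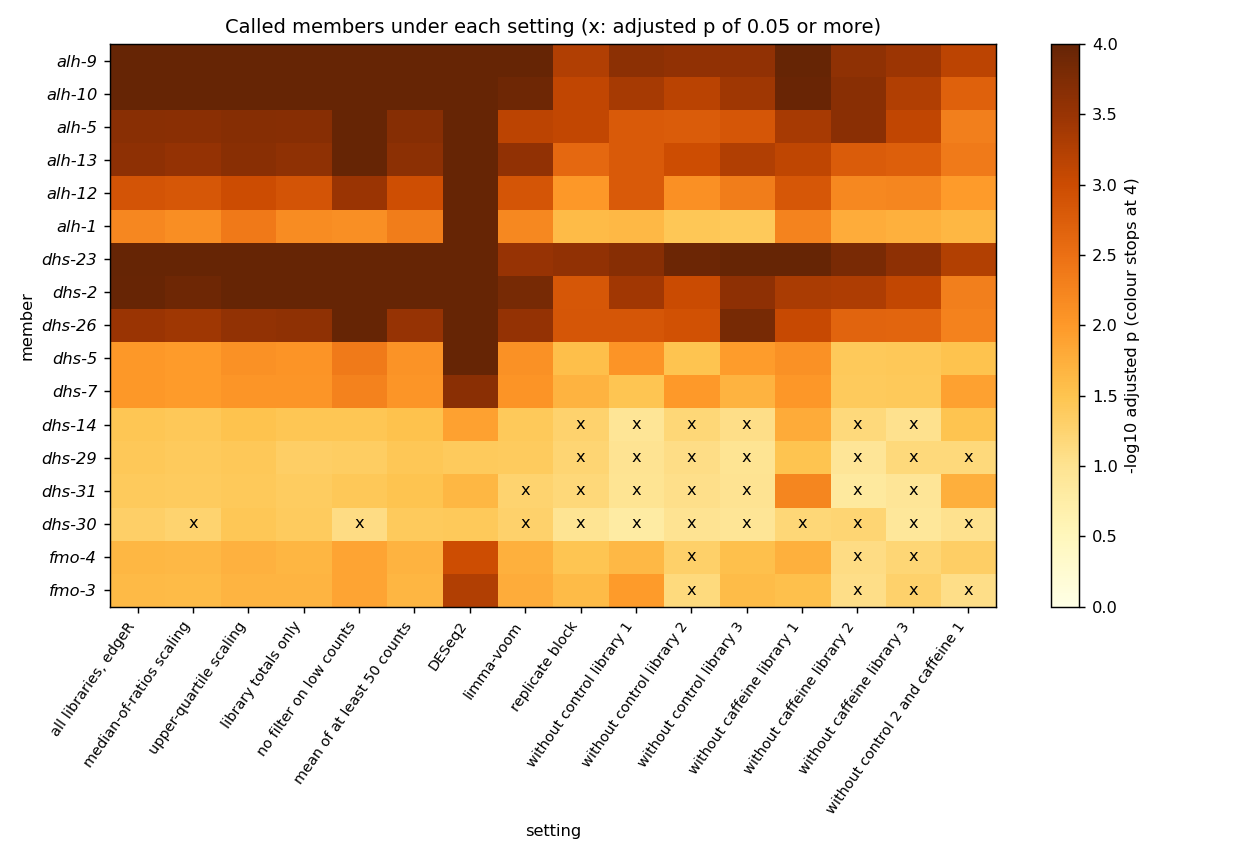
Adjusted p of the 17 called members (rows) with all libraries and under 15 alternative settings (columns), coloured by -log10 of the value up to 4. A cross marks an adjusted p of 0.05 or more; the 6 alh genes and 5 of the dhs genes have no cross, and dhs-30 has the most.

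Members lay on every nuclear chromosome, with 12 of the 28 dhs genes on chromosome V. The closest pair, dhs-14 and dhs-15, stood 3160 bp apart on the same strand of chromosome V. Of these, dhs-14 was called and dhs-15 was too low to test at 24 counts over all libraries. Beside the 8 members called at least 2-fold higher, the 2 nearest tested protein-coding genes on each side gave 32 neighbours, of which 7 were higher and 2 lower. These 9 are 28.1% of the neighbours, near the 24.3% called among all tested genes. By direction, 7 of 32 were higher, against 13.8% of all tested genes, and 2 were lower, against 10.5%. The 7 higher neighbours included clec-206 beside alh-5, with a mean of 0 CPM in control and 10.4 CPM with caffeine. The nearest tested genes on either side of dhs-23, ech-1.1 and T06E6.1, were not called, at -0.43 and -0.12. The next tested gene beyond ech-1.1, C29F3.7, was called higher at 2.32, with means of 44.2 CPM in control and 219.9 CPM with caffeine. None of the 45 members had a fractional expected count in any library, and none shared its 6 values with another ID. In 3 members, among them dhs-12, which overlaps the glutathione transferase gst-4, an exon overlaps another gene on the same strand, and in 15 an exon overlaps a gene on the opposite strand.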

How the data were processed

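RNA-seq libraries of 3 control and 3 caffeine samples were grouped by their titles. The authors deposited expected counts per WormBase gene ID, not scaled by depth or length, per the file headers. STAR 2.7.0e, RSEM 1.3.1 and the builds WBcel235 and ce11 are named in the submitters' processing notes, with no role. The annotation release and the strand setting are not given in the sources used here.

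Symbols came from a table of gene names that matched 44017 of 46904 IDs. Coordinates and exon lengths came from Ensembl release 115 on WBcel235. Expected counts were rounded. Genes were kept by filterByExpr of edgeR 4.0.16 in R 4.3.3 (minimum count 10, minimum total count 15), leaving 14200. TMM factors ran from 0.960 to 1.07. The 2 groups were set against each other in a quasi-likelihood fit of all 6 libraries without covariates, with Benjamini-Hochberg adjustment over all tested genes, and called at 0.05. The standard error is the log2 fold change divided by the square root of F. CPM per kilobase used the union of exons. The script was tested on simulated data. DESeq2 1.42.0 and limma-voom (limma 3.58.1) were alternatives, beside other scalings, filters, a replicate block and left-out libraries. No batch is given in the labels.

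The members, lists and the naming rule were chosen with earlier results of these data known. The rule named all tested alh and fmo genes, called dhs genes, the 3 most abundant uncalled dhs genes and called genes of each list, with values by library for calls of at least 2-fold and the most abundant member of each prefix. Values by library of other genes, and the genes beside the members, were added after the data were seen. Protein and promoter sequences were not used here.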

Additional observations from a re-analysis of the deposited data

How the results depend on the processing

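Each of the 15 alternatives was chosen with earlier results of these data known. None of the 17 called members changed sign, and 11 were called under every alternative. Of 43 tested members, 29 kept their side of the threshold throughout. Some uncalled members among these, such as fmo-2 and dhs-16, changed sign between alternatives. Of the 26 members not called, 8 were called under at least 1 alternative. With 1 library left out, calls over all tested genes ran from 1209 to 2264 higher and from 698 to 2512 lower, against 1962 and 1488. Among members, 5 to 10 dhs, 6 to 7 alh and 0 to 2 fmo genes were higher, and 0 to 1 dhs, 0 to 1 alh and 0 to 1 fmo genes lower. Without control library 2 and caffeine library 1 together, 1 fmo gene was higher. Under library totals only, the summed level was 1.14 times control for dhs and 1.34 times for alh genes. The cause of these differences was not tested. Scaling moved the median log2 ratio of all tested genes to at most 0.042. The filter at a mean of 50 counts did not test dhs-4, dhs-16 and fmo-2. With the replicate number as a block, 5 dhs genes were higher against 9, while alh and fmo counts were 6 and 2. Deviations from group means correlated at -0.183, -0.155 and 0.249 across tested genes between libraries of equal number. The highest value over all pairs was 0.433, between control library 2 and caffeine library 1. The labels do not say whether equal numbers mark a pair, and with 3 libraries per group these values cannot decide it. Low counts limit dhs-4, dhs-16, fmo-2, dhs-15 and alh-2.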
